A study of Mus musculus with 18 samples.

Results

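The 9 genes described here carry retinol and its active product, retinoic acid, through synthesis, clearance and signalling: Rbp4, Rdh10, Aldh1a1, Aldh1a2, Aldh1a3, Cyp26b1, Rarb, Rarg and Rxra. They were picked by name from the 30583 genes of the count table, and all 9 passed the filter on low counts that left 16311 genes for testing. The names were chosen from earlier results of these libraries in contrasts with sham. Those contrasts are therefore given for the 9 genes as a description, without p-values. Where a gene is said to be called against sham, the word records on which side of the threshold the fit across all genes put it, and it is no independent evidence of a change.

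Retinol travels in blood on a binding protein, is oxidised in the cell to retinaldehyde, and is then oxidised irreversibly to retinoic acid by retinaldehyde dehydrogenases. Cytochromes of the CYP26 family inactivate retinoic acid by oxidation. Retinoic acid acts by binding retinoic acid receptors, which sit on DNA as pairs with retinoid X receptors. In the embryonic heart and in epicardium after injury, Aldh1a2 is a well-known source of retinoic acid.

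RNA came from the left ventricle of male C57BL/6JR mice aged 12 weeks, with 3 mice in each of 6 groups and a separate mouse for each library. In 5 groups the left anterior descending coronary artery was tied, and the infarcted region was taken after 10 min or after 1, 6, 24 or 72 h. In the sham group the suture was passed and left untied. All animals shared the anaesthetic, sodium pentobarbital, and death under isoflurane, and the labels name no engineered allele. Nothing in the labels says how surgery days were spread over the groups, so the p-values measure the spread between mice within these groups.

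The libraries held 18199172 to 25062351 gene counts. The labels name cardiomyocytes as the cell type, yet markers of other cells were plentiful, so the libraries are read as whole tissue. The summed level of 8 cardiomyocyte markers ran from 57900 to 63000 CPM (counts-per-million, scaled by TMM, a method that sets aside the most changed genes) in sham and from 15200 to 20100 CPM at 72 h. The macrophage markers summed to 266 to 306 CPM in sham and 3110 to 4070 CPM at 72 h, and the fibroblast markers to 2030 to 2260 CPM and 4970 to 5870 CPM. In such samples fewer cells of a type and less RNA per cell cannot be told apart. Scaling matters as well, because with scaling to the plain library total the median gene moved by -0.12 (log2) at 6 h, 0.20 at 24 h and 0.61 at 72 h against sham. With TMM those medians were -0.01, 0.01 and 0.03.

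3 short stretches of promoter DNA show features that bear on the genes below. The first lies upstream of the Rarb start site in RefSeq (build GRCm38.p6), on the minus strand at chr14:16575507-16575535, bases -59 to -31 from that start. Capitals mark 2 receptor hexamers and the 5 bases between them, a direct repeat of the kind that retinoic acid receptors are known to bind. The other 2 cover bases -120 to -21 upstream of RefSeq starts of Aldh1a1 (chr19:20601848-20601947, plus strand) and Aldh1a2 (chr9:71215669-71215768, plus strand), whose levels took opposite courses at 24 h. They are shown because they differ in base composition, with no motif marked.
Rarb: gggaagGGTTCACCGAAAGTTCActcgca
Aldh1a1: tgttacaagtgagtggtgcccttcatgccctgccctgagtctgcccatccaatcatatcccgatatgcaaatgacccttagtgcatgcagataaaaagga
Aldh1a2: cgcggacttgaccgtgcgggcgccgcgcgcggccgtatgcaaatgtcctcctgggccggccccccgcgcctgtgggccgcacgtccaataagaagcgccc

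The Aldh1a1 stretch holds 1 CG pair and 48.0% G or C, and the Aldh1a2 stretch holds 16 CG pairs and 74.0% G or C. RefSeq windows of 300 bases were found for 7 of the 9 genes, 11 windows in all. Aldh1a3 and Rdh10 had none in the tables used here. The hexamers searched were the consensus AGGTCA, its close forms GGGTCA with a G at the start and AGTTCA with a T inside, and the form GGTTCA with both, on both strands, with overlapping matches kept. At least 1 such hexamer lies in 43.7% of 32851 windows of mouse genes, so its presence near Rbp4, Aldh1a1, Rarb, Rarg and Rxra sets nothing apart. A direct repeat spaced by 5 bases lies in 0.097% of the windows (32 of them), and among the 9 genes only in that of Rarb. Repeats spaced by 1 or 2 bases lie in 0.222% and 0.268% of windows and in none of the 11. A match is a description of these letters and not evidence of binding in these hearts.

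**Figure D1:**
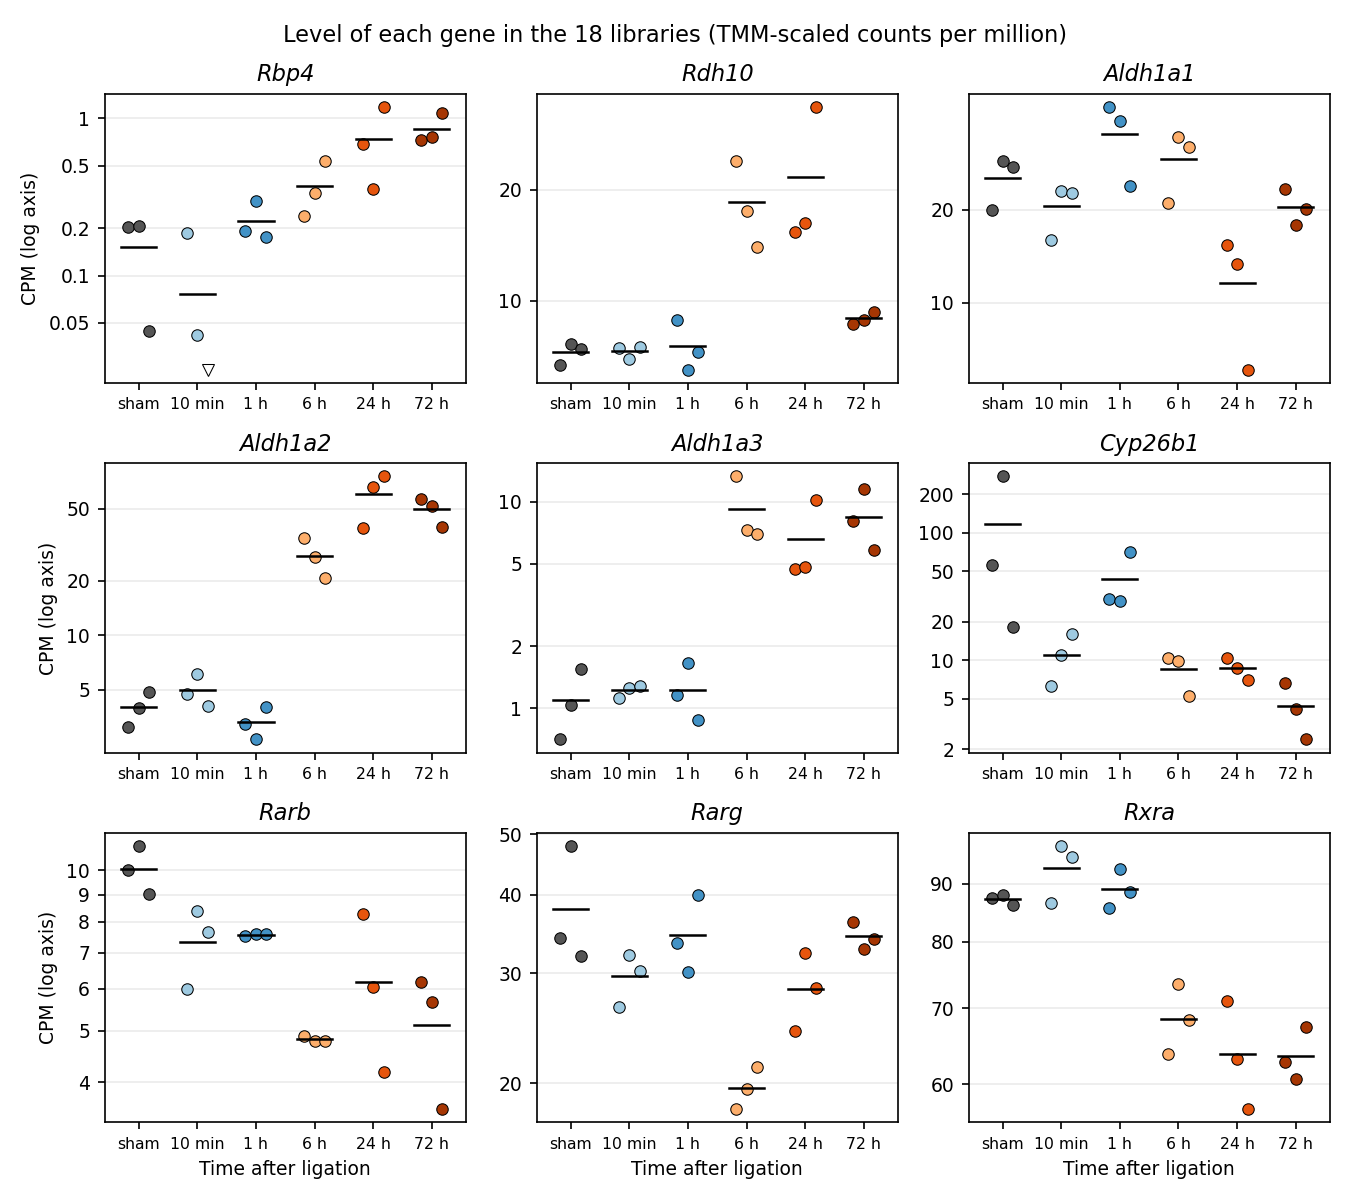
Level of each of the 9 genes in the 18 libraries, as TMM-scaled CPM on a log axis that differs between panels, by time after ligation. Each point is 1 mouse, the black line is the group mean of 3, and an open triangle marks a library with no count. Aldh1a2, Aldh1a3 and Rdh10 stand above sham at 6 and 24 h, Cyp26b1 is low at 10 min and from 6 h on, and 1 sham library of Cyp26b1 stands far above the other two.

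Against sham, the genes fell into 3 courses. Aldh1a2, Aldh1a3, Rdh10 and Rbp4 were higher at 1 or more of the late times, Cyp26b1, Rarb, Rarg and Rxra were lower, and Aldh1a1 was lower at 24 h only among the times tested. A gene is called changed where the adjusted p of edgeR's quasi-likelihood test was under 0.05. At 10 min and at 1 h, 0 of the 9 genes were called, beside 0.0736% and 0.294% of all genes. At an unadjusted p under 0.05 the numbers were 2 of the 9 at 10 min, where 1144 of all genes passed, and 0 of the 9 at 1 h, where 899 passed. At 6 h, 7 of the 9 genes were called (28.4% of all genes), 3 higher (16.3%) and 4 lower (12.2%). At 24 h all 9 were called (43.8%), 4 higher (23.7%) and 5 lower (20.2%). At 72 h, 6 were called (66.4%), 3 higher (34.2%) and 3 lower (32.2%). Since the genes were chosen from these contrasts, nothing is read from those counts. The median log2 fold change of the 9 was 0.20 at 6 h, -0.42 at 24 h and -0.14 at 72 h, beside -0.01, 0.01 and 0.03 over all genes.

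**Figure D2:**
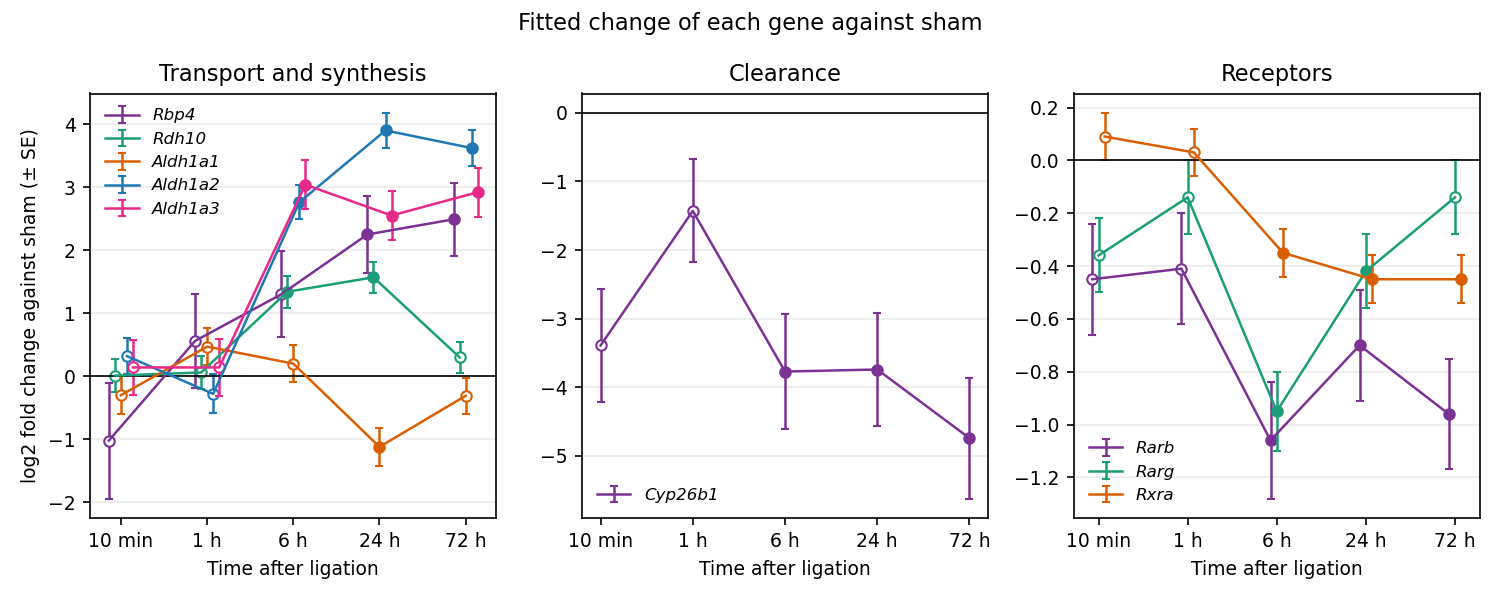
Fitted log2 fold change of each gene against sham by time after ligation, with its standard error. Filled points were called changed and open points were not. The synthesis genes Aldh1a2 and Aldh1a3 lie between 2.55 and 3.90 from 6 h on, Cyp26b1 lies between -3.74 and -4.74 at those times, and the 3 receptor genes lie within about 1 log2 unit of sham.

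Rbp4 (ENSMUSG00000024990, chr19:38116629-38125281, minus strand; mm10, GENCODE M21 gene models for all positions) encodes the carrier of retinol in blood and is made mainly by liver and fat. It was close to the limit of detection here. The sham libraries held 4, 4 and 1 counts, the 6 h libraries 4, 7 and 10, the 24 h libraries 16, 10 and 23 and the 72 h libraries 23, 25 and 34. Its level was 0.151 ± 0.0926 CPM (SD, n = 3) in sham and 0.856 ± 0.196 CPM at 72 h, and the groups did not overlap. The log2 fold change was 2.25 (SE 0.61) at 24 h and 2.49 (SE 0.58) at 72 h, both called. No library of sham, 10 min or 1 h held more than 5 counts, so Rbp4 passed the filter on low counts only through late libraries. Its calls and the lack of overlap are a description only. The hepatocyte markers summed to at most 1.28 CPM and the adipocyte markers to at most 2.82 CPM in any library.

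Rdh10 (ENSMUSG00000025921, chr1:16105774-16133734, plus strand) encodes the retinol dehydrogenase that makes retinaldehyde, the step before retinoic acid. It stood at 6.72, 7.62 and 7.42 CPM in the 3 sham libraries. The 6 h libraries held 23.9, 17.5 and 14.0 CPM and the 24 h libraries 15.3, 16.2 and 33.5 CPM. All 6 lay above every sham, 10 min and 1 h library, whose highest was 8.89 CPM. At 72 h the level was 8.67, 8.89 and 9.32 CPM, close to the highest early library. The change against sham was 2.54-fold at 6 h (log2 fold change 1.34, SE 0.25) and 2.98-fold at 24 h (1.57, SE 0.25), both called, and the value at 72 h was 0.30 (SE 0.25), not called. With library-total scaling the 72 h value was 0.89 and called, and a fit to the sham and 72 h libraries alone (0.31) also called it.

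Neutrophil markers varied widely between the mice of a time point. Their summed level, over 5 genes, was 675, 248 and 89.6 CPM in the 6 h libraries and 142, 31.9 and 602 CPM in the 24 h libraries, beside 2.04 to 3.37 CPM in sham and 42.2 to 52 CPM at 72 h. At 6 h and at 24 h, Rdh10, Aldh1a2 and Aldh1a3 were each highest in the library of that time richest in these markers. Those libraries were 6 h replicate 1 and 24 h replicate 3. Aldh1a3 stood at 11.4 CPM in 72 h replicate 2, above the 10.2 CPM of 24 h replicate 3. The marker sum of that 72 h library was 46 CPM. Rdh10, Aldh1a2 and Aldh1a3 all had the order of the marker sums in the 3 libraries of 6 h. None had it at 24 h, where replicate 2 held the fewest markers and more of each gene than replicate 1. The difference was slight for Rdh10 and Aldh1a3. The atrial markers also stood out in 6 h replicate 1, summing to 225 CPM beside 34.9 and 48.2 CPM in replicates 2 and 3. With 6 h replicate 1 left out the log2 fold change of Rdh10 at 6 h was 1.12, and with 24 h replicate 3 left out that at 24 h was 1.12, both still called. The part of neutrophil or atrial RNA in these levels was not tested.

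**Figure D3:**
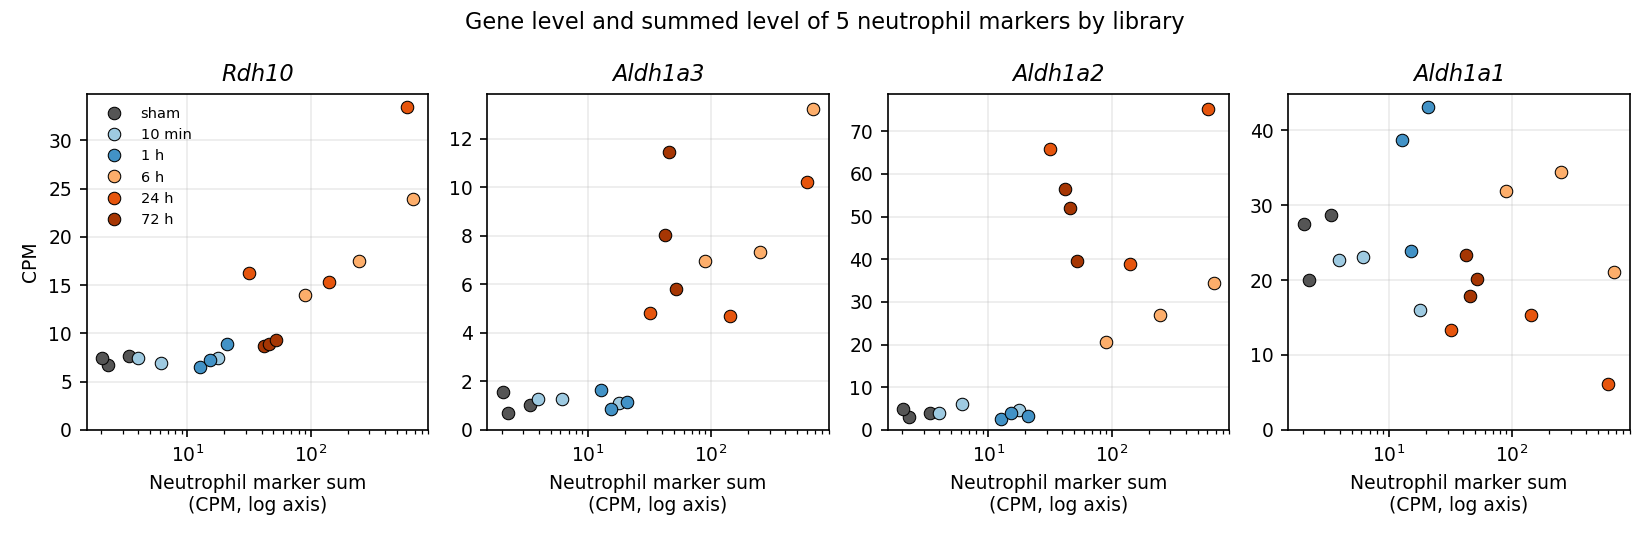
Level of 4 genes in each library against the summed level of 5 neutrophil markers (log axis), both as TMM-scaled CPM, with 1 point for each mouse. Rdh10 and Aldh1a3 are high in the libraries at 675 and 602 CPM of neutrophil markers. Aldh1a1 is lowest in the 24 h library at 602 CPM. The 72 h libraries hold much Aldh1a2 and Aldh1a3 at 42.2 to 52 CPM of these markers.

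The 3 retinaldehyde dehydrogenases carry out the last, irreversible step to retinoic acid, and their transcripts did not move together. Aldh1a2 (ENSMUSG00000013584, chr9:71215789-71296243, plus strand) stood furthest above sham among the 9 genes at 24 and at 72 h, though not at 6 h, where Aldh1a3 was further above. The sham libraries held 3.13, 3.99 and 4.89 CPM, the 10 min libraries 4.73, 6.13 and 4.08 CPM and the 1 h libraries 3.24, 2.66 and 4.02 CPM. The 6 h libraries held 34.3, 27.0 and 20.7 CPM, the 24 h libraries 38.8, 65.9 and 75.2 CPM and the 72 h libraries 56.6, 52.0 and 39.7 CPM. Thus every library from 6 h on lay above every earlier one, and the 24 and 72 h groups overlapped. The change against sham was 6.78-fold at 6 h (log2 fold change 2.76, SE 0.27), 14.9-fold at 24 h (3.90, SE 0.28) and 12.3-fold at 72 h (3.62, SE 0.28), all called.

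Beside this course, the markers of epicardium and mesothelium, the classic site of Aldh1a2 expression, summed to 19.1 to 31 CPM in sham, 12.7 to 22.5 CPM at 24 h and 38.2 to 91.9 CPM at 72 h. Of these 10 markers, 2 were called higher at 6 h, 0 at 24 h and 7 at 72 h, beside 16.3%, 23.7% and 34.2% of all genes. At 24 h 1 of the 10 was called lower, beside 20.2% of all genes. The fibroblast marker sum was 1120 to 1450 CPM at 24 h, below the sham range, in the same libraries in which Aldh1a2 was high. Single fibroblast markers went both ways at 24 h, with 3 of the 8 called higher (23.7% of all genes) and 4 lower (20.2%). Which cells held the transcript was not tested.

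Aldh1a3 (ENSMUSG00000015134, chr7:66390890-66427517, minus strand) is the paralogue best known from eye and nasal development. Its level was 1.10 ± 0.427 CPM in sham (SD, n = 3), and the 9 libraries of sham, 10 min and 1 h ranged up to 1.66 CPM. The 6 h libraries held 13.2, 7.32 and 6.98 CPM, the 24 h libraries 4.70, 4.81 and 10.2 CPM and the 72 h libraries 8.01, 11.4 and 5.82 CPM. The 3 late groups overlapped one another and lay apart from all earlier libraries. The change against sham was 8.20-fold at 6 h (log2 fold change 3.04, SE 0.39), 5.85-fold at 24 h (2.55, SE 0.39) and 7.56-fold at 72 h (2.92, SE 0.39), all called. With 24 h replicate 3, one of the libraries rich in neutrophil markers, left out, the value at 24 h was 2.09 and still called.

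Aldh1a1 (ENSMUSG00000053279, chr19:20492715-20643465, plus strand), the form widely expressed in adult tissues, took the opposite course at 24 h. It stood at 19.97, 28.7 and 27.5 CPM in sham, 43.0, 38.7 and 23.9 CPM at 1 h and 21.0, 34.4 and 31.9 CPM at 6 h. The 24 h libraries held 15.4, 13.3 and 6.08 CPM, below every other library of the series, and the 72 h libraries held 23.4, 17.9 and 20.2 CPM. The 24 h level was 2.18-fold lower than sham (log2 fold change -1.12, SE 0.30) and called, while the values at 1 h (0.47, SE 0.29) and 72 h (-0.31, SE 0.29, or 0.27 with library-total scaling) were not. With 24 h replicate 3 left out, the 24 h value was -0.82 and still called.

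On a scale that allows genes to be compared, CPM per kilobase of gene, Aldh1a1 led in sham at 5.15 against 1.77 for Aldh1a2 and 0.238 for Aldh1a3. At 24 h the levels were 2.35, 26.5 and 1.42. Of the sum of the 3 genes per kilobase, Aldh1a1 made up 72.0% ± 2.76 in sham, 30.3% ± 9.85 at 6 h, 8.74% ± 5.65 at 24 h and 15.1% ± 2.70 at 72 h (SD, n = 3). Aldh1a2 made up 24.7% ± 2.09 in sham and 86.6% ± 5.30 at 24 h. The leading transcript of the family thus passed from Aldh1a1 to Aldh1a2 between 1 and 6 h. Aldh1a3, in spite of its large fold change, stayed the smallest of the 3 in the group means at each time.

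**Figure D4:**
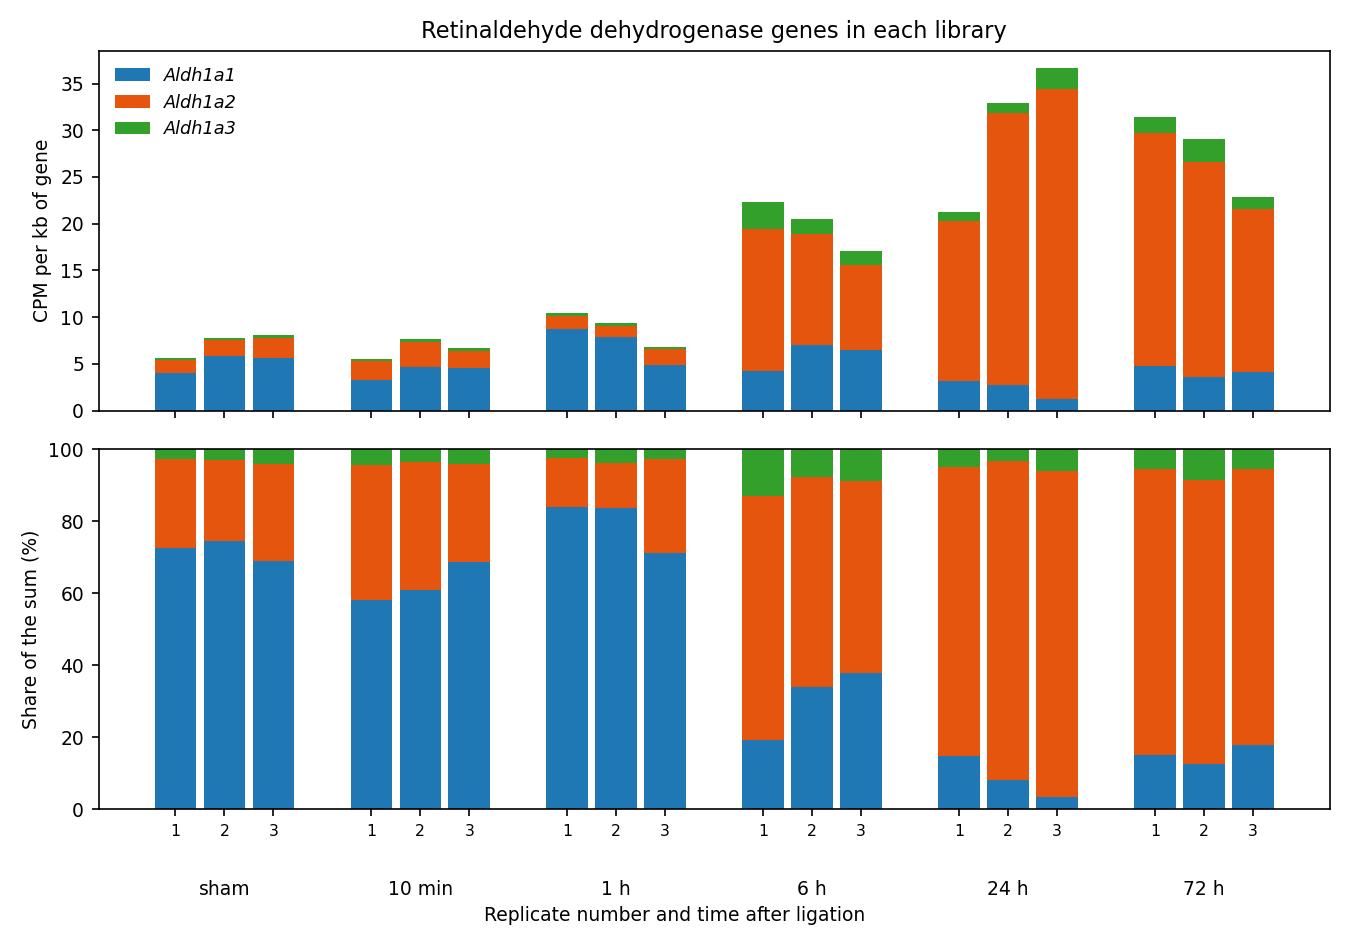
The 3 retinaldehyde dehydrogenase genes in each of the 18 libraries, stacked, as CPM per kilobase of gene (top) and as a percent of their sum (bottom). Aldh1a1 makes up most of the sum in sham (72.0% on average) and Aldh1a2 most of it at 24 h (86.6%).

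Cyp26b1 (ENSMUSG00000063415, chr6:84571414-84593908, minus strand) encodes a cytochrome that breaks down retinoic acid, and its transcript varied widely in sham. The sham libraries held 55.4, 277 and 18.3 CPM. The SD of their log2 CPM was 1.97, the rank 2 among 13663 tested genes with a mean of at least 1 CPM, where the median gene had 0.10. The 10 min libraries held 6.23, 10.9 and 16.0 CPM and the 1 h libraries 30.5, 29.2 and 70.2 CPM. The 6 h libraries held 10.4, 9.90 and 5.27 CPM, the 24 h libraries 10.4, 8.70 and 6.96 CPM and the 72 h libraries 6.56, 4.14 and 2.39 CPM. Every library of 10 min, 6, 24 and 72 h lay below the lowest sham library, and the 1 h group overlapped sham.

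The fitted level of Cyp26b1 was 13.7-fold lower than sham at 6 h (log2 fold change -3.77, SE 0.84), 13.4-fold lower at 24 h (-3.74, SE 0.83) and 26.7-fold lower at 72 h (-4.74, SE 0.88), all called. Its value at 10 min, -3.39 (SE 0.82), was not called by edgeR and was called by DESeq2. The size of these folds rests on sham replicate 2. Without it the level was 4.31-fold lower at 6 h, 4.21-fold lower at 24 h and 8.46-fold lower at 72 h, still called, and the values at 10 min and 1 h were -1.73 and 0.23. A fit to the sham and 6 h libraries alone lost the 6 h call.

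Sham replicate 2 was also the highest sham library for Rarb, Rarg, Rdh10, Aldh1a1, Rxra and Rbp4. Aldh1a2 and Aldh1a3 were highest in sham replicate 3. Replicate 2 was highest too for Dhrs3, a retinaldehyde reductase known to respond to retinoic acid. Dhrs3 stood at 84.6, 106 and 67.1 CPM in sham replicates 1, 2 and 3. Cyp26b1, Rarb, Rarg, Rxra and Rbp4 had the same order, Rbp4 at 1 to 4 counts. With 3 libraries this order is a description only.

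Rarb (ENSMUSG00000017491, chr14:16430839-16819156, minus strand) encodes retinoic acid receptor beta, itself a classic target of retinoic acid through the direct repeat printed above. Its sham libraries held 10.0, 11.1 and 9.02 CPM, and the 6 h libraries 4.89, 4.78 and 4.79 CPM. The 24 h libraries held 8.29, 6.05 and 4.18 CPM and the 72 h libraries 6.18, 5.66 and 3.56 CPM. All of these late libraries lay below the lowest sham library. So did the 10 min libraries (5.98, 8.40 and 7.65 CPM) and the 1 h libraries (7.53, 7.58 and 7.58 CPM), where Rarb was not called. The 24 h range overlapped both of these early groups. The level was 2.08-fold lower than sham at 6 h (log2 fold change -1.06, SE 0.22), 1.62-fold lower at 24 h (-0.70, SE 0.21) and 1.95-fold lower at 72 h (-0.96, SE 0.21), all called, and the calls at 24 and 72 h were lost with scaling to the library total. The 24 h call was also lost without sham replicate 2 (-0.62) and without 24 h replicate 3 (-0.49).

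A further limit concerns the locus. Of the 5265 exon bases of Rarb, 1793 are shared with Top2b on the opposite strand, and the use of strand in counting is not given in the sources used here, so reads from that stretch cannot be told apart. Top2b ran from 63.7 to 80.8 CPM over the 18 libraries. The RefSeq start used for the printed sequence lies 243.7 kb inside the M21 gene model, and 5 of its 7 M21 transcripts start within 1 kb of it.

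Rarg (ENSMUSG00000001288, chr15:102234938-102257517, minus strand) encodes retinoic acid receptor gamma and dipped at 6 h. The sham libraries held 34.2, 47.9 and 32.0 CPM, the 6 h libraries 18.2, 19.6 and 21.3 CPM, the 24 h libraries 24.3, 32.3 and 28.4 CPM and the 72 h libraries 36.2, 32.8 and 34.0 CPM. The 6 h group lay below all other libraries, whereas 24 h and 72 h overlapped sham. The level was 1.93-fold lower than sham at 6 h (log2 fold change -0.95, SE 0.15) and 1.34-fold lower at 24 h (-0.42, SE 0.14), both called. The 24 h call was lost with library-total scaling and without sham replicate 2 (-0.22), 24 h replicate 1 (-0.31) or 24 h replicate 3 (-0.42). At 72 h the value was -0.14, not called, and 0.45, called, with scaling to the library total.

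Rxra (ENSMUSG00000015846, chr2:27676440-27762957, plus strand) encodes retinoid X receptor alpha, the shared partner of many nuclear receptors and needed for growth of the heart wall in the embryo. It was the steadiest of the 9 genes in sham, at 87.4, 87.9 and 86.2 CPM. The 6 h libraries held 63.8, 73.4 and 68.3 CPM, the 24 h libraries 71.0, 63.1 and 57.1 CPM and the 72 h libraries 62.7, 60.7 and 67.4 CPM. These 9 libraries lay below every library of sham, 10 min and 1 h, and the 3 late groups overlapped. The level was 1.27-fold lower at 6 h (log2 fold change -0.35, SE 0.09), 1.37-fold lower at 24 h (-0.45, SE 0.09) and 1.37-fold lower at 72 h (-0.45, SE 0.09), all called, and the value at 72 h turned to 0.13, not called, with scaling to the library total.

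Set in order of level per kilobase in sham, the 9 genes ran from Cyp26b1 (21.8 CPM per kb) and Rxra (16.0) through Rarg (9.25), Aldh1a1 (5.15), Rarb (1.91), Aldh1a2 (1.77), Rdh10 (1.74) and Aldh1a3 (0.238) to Rbp4 (0.117). At 24 h Aldh1a2 stood first at 26.5 CPM per kb, then Rxra (11.7) and Rarg (6.90), while Cyp26b1 stood at 1.63. In sham, Cyp26b1 could not be ordered against Rxra, Rarg or Aldh1a1, since its libraries ranged from 3.42 to 51.8 CPM per kb. Rarb, Aldh1a2 and Rdh10 lay within about the spread of Aldh1a2. The ranges of Aldh1a3 and Rbp4 also touched.

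Consecutive times were then compared, contrasts without the sham group. They use the same late libraries as the contrasts from which the genes were chosen, so their p-values are not independent of that choice. Between 10 min and 1 h, 0 of the 9 genes were called, beside 0.307% of all genes. The largest values were those of Cyp26b1 (log2 fold change 1.96, SE 0.80, adjusted p = 0.582), Rbp4 (1.58, SE 0.87, adjusted p = 0.742) and Aldh1a1 (0.78, SE 0.30, adjusted p = 0.517). Between 1 and 6 h, 6 of the 9 were called (24.5% of all genes), 3 higher (14.5%) and 3 lower (10.0%). Aldh1a2 rose by 3.04 on the log2 scale (SE 0.28, adjusted p = 5.17e-06), Aldh1a3 by 2.89 (SE 0.39, adjusted p = 9.02e-05) and Rdh10 by 1.28 (SE 0.25, adjusted p = 0.00158). Rarg fell by 0.81 (SE 0.15, adjusted p = 0.000777), Rxra by 0.38 (SE 0.09, adjusted p = 0.0049) and Rarb by 0.65 (SE 0.22, adjusted p = 0.0405). The call of Rarb was lost when any 1 of the 6 libraries compared was left out (adjusted p from 0.0787 to 0.0936). Cyp26b1 missed the threshold at -2.34 (SE 0.82, adjusted p = 0.0535) although the 1 h and 6 h libraries did not overlap. It passed under 5 alternatives, with adjusted p = 0.0499 for library-total scaling, 0.0375 with at least 10 counts in every library, 0.0105 by DESeq2, 0.022 by limma on log2(FPKM + 0.1) and 0.0227 in a fit to the 6 libraries alone.

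Between 6 and 24 h, 3 of the 9 genes were called (27.8% of all genes), 2 higher (14.2%) and 1 lower (13.7%). Aldh1a2 rose by a further 1.13 on the log2 scale (SE 0.24, adjusted p = 0.00262), and Rarg rose by 0.53 (SE 0.15, adjusted p = 0.0122). Aldh1a1 fell by 1.32 (SE 0.30, adjusted p = 0.00508). The values of Rdh10 (0.23, adjusted p = 0.504), Rarb (0.36, adjusted p = 0.241), Rxra (-0.10, adjusted p = 0.402) and Cyp26b1 (0.03, adjusted p = 0.982) did not pass. The Rarg call was lost without 24 h replicate 2 (0.42), and all 3 were lost in a fit to the 6 and 24 h libraries alone. With library-total scaling Rarb was called (0.65) and Rxra stood at 0.19, and Aldh1a3 was called without 24 h replicate 3 (-0.94).

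Between 24 and 72 h, 2 of the 9 genes were called (50.5% of all genes), 1 higher (24.4%) and 1 lower (26.1%). Rdh10 fell by 1.27 (SE 0.24, adjusted p = 0.000297) and Aldh1a1 rose by 0.81 (SE 0.30, adjusted p = 0.0353). The Aldh1a1 call was lost without 24 h replicate 3 (0.51), 72 h replicate 1 (0.70) or 72 h replicate 3 (0.82). Aldh1a2 (-0.28, adjusted p = 0.337), Aldh1a3 (0.37, adjusted p = 0.369), Rarg (0.28, adjusted p = 0.116), Rarb (-0.27, adjusted p = 0.317), Rxra (0.00, adjusted p = 0.976) and Cyp26b1 (-1.0, adjusted p = 0.352) did not pass. With scaling to the library total Rxra (0.39) and Rarg (0.66) were called, and Rarb (0.13) and Aldh1a2 (0.09) changed sign uncalled. Aldh1a3 was called without 24 h replicate 3 (0.82), and Cyp26b1 in a fit to the 24 and 72 h libraries alone (-0.99).

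The make-up of the receptor families changed along with the levels. Of the 3 retinoic acid receptor genes per kilobase, Rarg made up 62.9% in sham, 39.5% at 6 h and 56.7% at 72 h, and Rarb 13.1%, 7.49% and 6.59%. Rara, which encodes retinoic acid receptor alpha, made up 24.0%, 53.0% and 36.7%. Of the 3 retinoid X receptor genes, Rxra made up 27.7% in sham and 36.2% at 72 h, while Rxrg made up 41.7% and 21.2%. Among the Cyp26 genes, Cyp26b1 made up 99.4% in sham and 67.5% ± 5.85 at 72 h (SD, n = 3). Cyp26a1, named after its values were seen, held 22, 13 and 12 counts at 72 h and 1, 1 and 2 counts in sham. Its log2 fold change was 2.81 (SE 0.79). No library before 72 h held more than 5 counts, so the gene passed the filter on low counts only through its 72 h group. Its call there is a description only.

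Of 48 other genes of the retinoid pathway, 47 were in the table and 36 were tested. Against sham, 0 were called at 10 min (4 at an unadjusted p under 0.05) and 0 at 1 h (1 unadjusted). At 6 h 14 were called, 9 higher and 5 lower. At 24 h 20 were called, 8 higher and 12 lower, and at 72 h 29 were called, 12 higher and 17 lower. Those are 38.9%, 55.6% and 80.6% of the 36 tested, beside 28.4%, 43.8% and 66.4% of all genes. Over the 5 times 34 of them were called at least once.

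Among the 7 tested genes for transport and binding, 5 rose and 2 fell by 72 h. Some of those 5, Crabp2 among them (0.0169 CPM in sham), were near 0 in sham and passed the filter through late libraries. Over all genes 34.2% were called higher and 32.2% lower at 72 h, and nothing is read from the small counts by role, here and below. Changes of these other genes are given as log2 fold changes against sham. Fabp5, a fatty acid and retinoic acid binding protein, rose by 2.76 (SE 0.13, adjusted p = 9.39e-12), with 36.7 CPM in sham and 249 CPM at 72 h. Rbp7, a retinol carrier of endothelium and fat, rose by 1.08 at 6 h (adjusted p = 5.21e-05) and fell by 1.10 at 72 h (adjusted p = 4.07e-06). The endothelial marker sum was 1070 to 1190 CPM in sham and 658 to 863 CPM at 72 h, and its part in the Rbp7 level was not tested.

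Of the 4 tested genes for retinyl esters, 1 rose and 3 fell by 72 h. Lrat, which stores retinol as esters, fell by 2.42 at 24 h (SE 0.51, adjusted p = 0.00103) and by 1.56 at 72 h (adjusted p = 0.00523), though the 72 h call was lost with library-total scaling (-0.99). Lrat counts were low, at 23, 28 and 43 in sham, 9, 9 and 2 at 24 h and 22, 16 and 11 at 72 h. Lipe, a lipase that releases retinol from esters, fell by 1.04 at 72 h (adjusted p = 7.22e-06). Dgat1, an acyltransferase, fell by 0.36 at 72 h (adjusted p = 0.0158) with TMM, stood at 0.22 with library-total scaling, and was not called without 72 h replicate 2 (-0.29). Of the 9 genes that interconvert retinol and retinaldehyde, 3 rose and 5 fell by 72 h. Adh1, an alcohol dehydrogenase that also takes retinol, rose by 1.61 at 6 h (adjusted p = 0.000974), to 51.9 CPM from 17 CPM in sham, and fell by 3.13 at 72 h (adjusted p = 8.85e-07), to 1.94 CPM. Dhrs4 and Rdh14, oxidoreductases of the same step, fell by 1.21 and 1.26 at 72 h.

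Of the 3 other receptor genes, 0 rose and 2 fell by 72 h. Rxrg, the retinoid X receptor of striated muscle, fell by 0.77 at 6 h (adjusted p = 0.0147), 1.09 at 24 h (adjusted p = 0.000906) and 1.81 at 72 h (adjusted p = 2.35e-06). Rxrb fell by 0.37 at 72 h (adjusted p = 0.000987) with TMM and stood at 0.22 with library-total scaling. Rara rose by 0.98 at 6 h (adjusted p = 0.0408) and 1.15 at 24 h (adjusted p = 0.0117), and its value at 72 h was 0.65 (adjusted p = 0.097). The 72 h libraries held 24.6, 23.2 and 23 CPM, above the sham libraries at 14.5, 14.1 and 16.5 CPM. The 72 h value was called with library-total scaling (1.23), with limma on log2(FPKM + 1) (1.02) and on log2(FPKM + 0.1) (1.21). A fit to the sham and 72 h libraries alone (0.65) also called it. Rara was highest, at 44.0 and 57.6 CPM, in the libraries richest in neutrophil markers. Without 6 h replicate 1 its 6 h value was 0.59, and without 24 h replicate 3 its 24 h value was 0.53, neither called. The 6 h call of Rara was also lost without sham replicate 1 (0.95), 2 (0.94) or 3 (1.06), and that of Rxrg without 6 h replicate 1 (-0.61).

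Of the 6 receptor coregulators, 1 rose and 3 fell by 72 h. The coactivators Ncoa1 and Ncoa2 fell by 0.44 and 0.59 and the corepressor Ncor1 by 0.42. With library-total scaling none of these 3 was called, and Ncoa1 stood at 0.14 and Ncor1 at 0.17. Of the 6 tested genes known to respond to retinoic acid, 1 rose and 2 fell by 72 h. Tgm2, a transglutaminase, rose by 1.09 at 6 h (adjusted p = 4.29e-05) and 1.43 at 24 h (adjusted p = 1.72e-06), from a sham level of 248 CPM to 528 and 666 CPM, and stood at 347 CPM at 72 h. The homeobox genes Meis1 and Meis2 fell by 0.43 and 0.65 at 72 h with TMM. With library-total scaling Meis1 stood at 0.16 and Meis2 at -0.07, neither called.

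**Figure D5:**
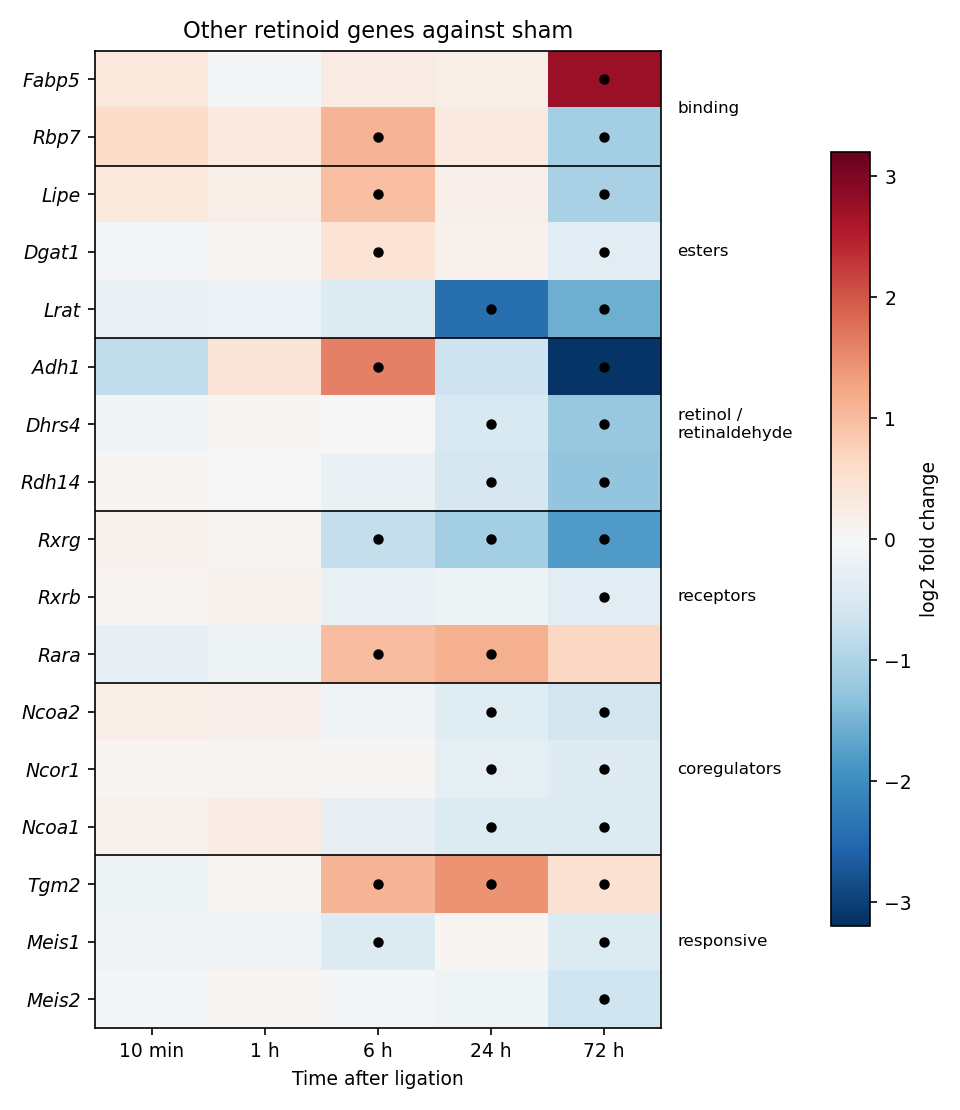
Fitted log2 fold change against sham of 17 other retinoid genes (rows, grouped by role) at each time after ligation (columns), with a black dot where the change was called. No dot stands at 10 min or 1 h, Fabp5 (2.76) is the darkest red at 72 h, and Adh1 (-3.13) is the darkest blue.

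The genes with the most similar course across the 18 libraries were sought by Pearson's r of log2 CPM, as a description with no test, since the libraries share their 6 time groups. Aldh1a2 was most like Timp1 (0.986), an inhibitor of matrix proteases, then Nhp2 (0.981) and Pdpn (0.981), which encodes podoplanin. Aldh1a3 was most like Eif1a (0.978), Il4ra (0.975) and Atp8b1 (0.972). Rdh10 was most like Prg4 (0.965), Slc2a1 (0.963), a glucose transporter, and Asprv1 (0.962). Rxra was most like Lsmem1 (0.966), Aaed1 (0.966) and Slc2a12 (0.962). The other genes had lower values. Aldh1a1 had Scn7a (0.874), St6galnac2 (0.842) and Slco2b1 (0.839), and Cyp26b1 had Net1 (0.864), Sstr4 (0.844) and Ankrd12 (0.837). Rarb had Tmem129 (0.885) and Stmn2 (0.878), and Rarg had Fam117a (0.859), Fn3krp (0.855) and AU020206 (0.85). Rbp4 had Mroh1 (0.927), Rpl17-ps3 (0.898) and Cd244a (0.897). Among the 9 genes themselves, Aldh1a2 had r = 0.92 with Aldh1a3 and -0.95 with Rxra over the 18 libraries, and Cyp26b1 had 0.79 with Rarb.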

How the data were processed

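Per the submitters' processing notes, cutadapt 1.18, HISAT2 2.1.0 and featureCounts were used with the mouse build mm10. Settings and the use of strand are not given in the sources used here. The authors deposited whole-number counts per Ensembl gene, and FPKM values that equal those counts divided by gene length and library total. The FPKM columns of 6 h replicates 2 and 3 match each other's counts, so the deposited counts served for every main value and FPKM only for alternatives.

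Poly(A) RNA was sequenced from 18 mice, with no molecular identifiers. Counts were filtered (filterByExpr), scaled by TMM and fitted over all 18 libraries by edgeR 4.0.16 (robust quasi-likelihood F test, R 4.3.3), with p-values adjusted by Benjamini-Hochberg over 16311 genes. The biological coefficient of variation was 0.149. Alternatives used DESeq2 1.42.0, limma 3.58.1, library-total scaling, no filter, fewer libraries and a replicate block. The code was checked on simulated data. Sequences come from RefSeq tables (GRCm38.p6). Symbols were matched by Ensembl ID.

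The 9 genes, the other lists and the tests were chosen with earlier results of these data known. Of the other retinoid genes, the text names up to 3 in each role, those with the smallest F test adjusted p among genes called in a contrast with sham and with a mean of at least 1 CPM, plus Cyp26a1, Dhrs3, Crabp2 and Dhrs9, named after their values were seen. The 3 genes nearest to a member were sought among tested genes with at least 1 CPM. Some genes that these rules would name are not reported here.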

Additional observations from a re-analysis of the deposited data

How the results depend on the processing

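With library-total scaling, 6880 genes were called between 6 and 24 h (4541 with TMM), 4 of the 9 retinoid genes between 24 and 72 h, and genes called higher made up, of all called, 40.6% at 6 h, 75.5% at 24 h and 79.9% at 72 h against sham (57.2%, 54% and 51.4% with TMM), 88% between 6 and 24 h (50.9%), 81.5% between 24 and 72 h (48.4%) and 77.8% at 10 min (41.7%). Signs of called genes turned at 72 h against sham under library-total scaling, limma on log2(FPKM + 1) and limma on log2(FPKM + 0.1), in that order, for Rxra (0.133, 0.122, 0.129), Dgat1 (0.223, 0.191, 0.216), Rxrb (0.221, 0.207, 0.217), Ncor1 (0.167, 0.149, 0.164), Ncoa1 (0.140, 0.109, 0.136) and Meis1 (0.160, 0.113, 0.158), and the uncalled sign of Rxra between 24 and 72 h (0.392, 0.368, 0.391). Uncalled values also changed sign with library-total scaling, for Aldh1a1 (0.27) and Rarg (0.45, then called) at 72 h against sham, Rarb (0.13) and Aldh1a2 (0.09) between 24 and 72 h and Rxra (0.19) between 6 and 24 h. The cause was not tested. Without the filter 26 genes were called at 10 min and 1 of the 9 between 24 and 72 h. DESeq2 called 58 genes at 10 min, 93 at 1 h and 127 between 10 min and 1 h, 1 of the 9 at 10 min (Cyp26b1) and 1 other retinoid gene between 10 min and 1 h. With limma on log2(FPKM + 1), 2 genes were called at 10 min, 13 other retinoid genes at 24 h and 5 of the 9 between 24 and 72 h. With 0.1 in its place, 4 genes were called at 10 min, 5 of the 9 between 6 and 24 h and 4 between 24 and 72 h. Fits on only the 6 libraries compared called 360 genes at 10 min, 190 at 1 h, 244 between 10 min and 1 h and 1024 between 6 and 24 h, other retinoid genes to the number of 3, 13 and 3 at 10 min, at 24 h and between 6 and 24 h, and 0 of the 9 in the last. Leaving out each library in turn gave 0 to 5 genes at 10 min, 31 to 39 at 1 h, 6 to 40 between 10 min and 1 h, 2926 to 4655 at 6 h, 2481 to 4084 between 1 and 6 h, 1 to 2 of the 9 between 24 and 72 h, and other retinoid genes of 12 to 19 at 24 h, 7 to 13 between 6 and 24 h, 11 to 17 between 1 and 6 h and 0 to 1 between 10 min and 1 h. Over all alternatives, 1140 of 1200 calls of the 9 genes were unchanged, 33 were lost and 27 gained. Depth limits Rbp4, with 0 to 34 counts per library, and Lrat, with 2 to 43.

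The replicate numbers were not treated as pairs, since the labels give no pairing. The values that follow cannot exclude a shared day of surgery or library preparation. The deviations of same-numbered libraries correlated above 0.1 in 4 of 45 pairs (median 0.035), and those of other pairs in 9 of 90 (median -0.013). With the number as a block, 14, 43, 4540, 7091 and 10784 genes were called at 10 min, 1, 6, 24 and 72 h, 0, 0, 7, 9 and 6 of the 9 genes, with no call of the 9 changed, and 19 other retinoid genes at 24 h.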

Other observations

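Values of 3 further retinoid genes, named here after their values were seen, follow. Crabp2, which carries retinoic acid to its nuclear receptors, stood at 0.0169 ± 0.0292 CPM in sham, 0.204 ± 0.136 CPM at 6 h, 0.0749 ± 0.0353 CPM at 24 h and 1.92 ± 0.42 CPM at 72 h (SD, n = 3). It was called higher than sham at 6 h, where no library exceeded 0.298 CPM, and at 72 h, and not at 24 h. Crabp2 passed the filter on low counts only through its 72 h group, so these calls are a description only. Dhrs9, a dehydrogenase of the step to retinaldehyde, was highest at 6 and 24 h in the libraries richest in neutrophil markers, with 5.72 and 3.35 CPM, and ran from 3.40 to 4.66 CPM at 72 h, where those markers were low. Dhrs3 was lower than sham at 24 h (log2 fold change -0.51, SE 0.18, adjusted p = 0.0293) and higher at 72 h (0.47, SE 0.18, adjusted p = 0.0299). Its 24 h libraries ranged from 48.6 to 69.2 CPM and its 72 h libraries from 103 to 131 CPM. The sham libraries ranged from 67.1 to 106 CPM, so both groups overlapped sham.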
